A study of Mus musculus with 8 samples.

Results

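The genes described here encode the subunits of the receptors through which cells respond to glutamate, GABA, glycine and acetylcholine. They were chosen by symbol: the AMPA (Gria), kainate (Grik), NMDA (Grin) and delta (Grid) glutamate receptor subunits, the metabotropic glutamate receptors (Grm), the GABA-A and rho subunits (Gabr), the glycine receptor subunits (Glr) and the nicotinic acetylcholine receptor subunits (Chrn), without the efferent subunits Chrna9 and Chrna10. Only array features linked to exactly 1 symbol were used, and the feature with the highest mean over all arrays stood for a gene. This gave 58 genes out of 22180 with such a feature. They were covered by 63 of 23521 features, because Grin2b, Grin2c, Grin2d, Grm6 and Grm7 had 2 features each. A further 6 symbols of the same families were not analysed here.

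Expression was measured in the cochlea of mice at postnatal day 16, in 4 miR-183/96 knockout animals and 4 control animals, which the design text calls wild type. The whole encapsulated organ was taken, so bone, nerve, sensory epithelium and attached tissue share a sample, and the 2 cochleae of an animal were pooled as 1 replicate. Total RNA was hybridised to Affymetrix Mouse Gene 2.0 ST arrays, 1 array per animal. The labels and design text name no strain, sex, litter or extent of the deleted segment. All values are on the log2 scale, and all differences are knockout minus control with the standard error (SE) of limma.

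Ionotropic receptors are ion channels opened by their transmitter, while metabotropic receptors act through G proteins. In the cochlea, inner hair cells release glutamate onto AMPA receptors of spiral ganglion neurons, and efferent fibres from the brainstem release acetylcholine and GABA onto hair cells and nerve endings. Glycine receptors and most GABA-A receptors conduct chloride, and nicotinic receptors of the muscle type sit at the endplate of skeletal muscle.

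The microRNAs removed in the knockout are shown first because they define the comparison. Mature microRNAs pair with target transcripts mainly through the seed, bases 2 to 8, which stands in capitals in these RefSeq sequences (GRCm38.p6, minus strand, chr6:30169506-30169528 for miR-96 and chr6:30169711-30169732 for miR-183). The 2 seeds are not identical, so each forms a group of its own.
mmu-miR-96-5p: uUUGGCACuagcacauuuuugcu
mmu-miR-183-5p: uAUGGCACugguagaauucacu

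The upstream sequences of 5 receptor genes are shown next. Glrb, Gabrr3, Gabrr1 and Glra4 had the 4 smallest p-values among the members, and Chrng had the smallest among the muscle subunits. Each line gives the 250 bases before the RefSeq start of transcription in GRCm38.p6, read in the direction of the gene. Capitals mark CG pairs in the first 4 lines and the motif CAGCTG in the line of Chrng. The windows are chr3:80913661-80913910 (minus strand) for Glrb, chr16:59407132-59407381 (plus) for Gabrr3, chr4:33132306-33132555 (plus) for Gabrr1, chrX:136779722-136779971 (minus) for Glra4 and chr1:87205561-87205810 (plus) for Chrng.
Glrb: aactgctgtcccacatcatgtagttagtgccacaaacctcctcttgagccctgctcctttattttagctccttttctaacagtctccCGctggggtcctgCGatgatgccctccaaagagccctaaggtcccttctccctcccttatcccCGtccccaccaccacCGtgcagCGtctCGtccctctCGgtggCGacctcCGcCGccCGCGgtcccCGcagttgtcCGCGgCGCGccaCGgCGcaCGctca
Gabrr3: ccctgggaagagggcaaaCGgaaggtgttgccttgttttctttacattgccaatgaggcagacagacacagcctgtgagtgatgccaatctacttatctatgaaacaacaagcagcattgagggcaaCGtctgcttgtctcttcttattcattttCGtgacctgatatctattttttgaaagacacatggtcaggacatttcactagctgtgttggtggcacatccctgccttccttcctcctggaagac
Gabrr1: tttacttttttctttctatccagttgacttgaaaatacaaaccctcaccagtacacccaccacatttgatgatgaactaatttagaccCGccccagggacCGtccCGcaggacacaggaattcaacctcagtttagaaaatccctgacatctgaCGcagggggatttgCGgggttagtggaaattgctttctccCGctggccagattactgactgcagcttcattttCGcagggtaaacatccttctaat
Glra4: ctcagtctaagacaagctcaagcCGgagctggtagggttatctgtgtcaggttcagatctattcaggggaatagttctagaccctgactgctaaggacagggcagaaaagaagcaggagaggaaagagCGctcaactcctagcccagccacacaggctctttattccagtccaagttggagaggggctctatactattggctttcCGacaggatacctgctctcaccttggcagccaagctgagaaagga
Chrng: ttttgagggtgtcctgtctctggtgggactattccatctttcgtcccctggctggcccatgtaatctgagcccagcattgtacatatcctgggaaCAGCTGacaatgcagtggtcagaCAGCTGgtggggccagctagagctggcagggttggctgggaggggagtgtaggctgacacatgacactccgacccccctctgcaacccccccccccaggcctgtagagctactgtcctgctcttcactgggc

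The Glrb window held 20 CG pairs, against 3 in Gabrr3, 7 in Gabrr1 and 3 in Glra4. Chrng held 2 copies of CAGCTG, an E-box letter sequence of the kind that muscle regulatory factors bind. Over the 51 windows of 43 members found in the RefSeq promoter table, the median was 8 CG pairs and a GC content of 59.2%, compared with 6 pairs and 52.4% over all 32851 windows of that length. Windows with at least 20 CG pairs made up 15.7% of the members' and 17.9% of all windows. CAGCTG stood in 11.8% of the members' windows and 13.0% of all, and TATAAA in 11.8% and 12.4%. GGACAG, the letters of 1 end of the RE1 element that the repressor REST binds, stood in 35.3% of the members' windows (18 of 51) and 18.7% of all. The motifs were searched on both strands, and a match is a description of letters, not of a bound site.

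The arrays and the dissection were checked before the receptors. Mir96 read 5.69 ± 0.40 in control and 4.21 ± 0.13 in knockout animals (SD, n = 4; limma adjusted p = 0.00932), a drop that follows the labels. Mir183, the other microRNA named in the genotype, differed by -0.33 with overlapping groups (limma adjusted p = 0.398) at a mean of 2.41, percentile 3.51 of all tested features, and did not check the labels. The cochlear fluid and matrix genes Coch and Otos lay at percentiles 99.6 and 99.7 of all tested features. Pairs of arrays correlated at 0.947 to 0.976. The spread of values within an array differed between the groups: the SD over tested features was 1.37 to 1.44 in knockout arrays and 1.41 to 1.56 in control arrays, with the lowest control value in replicate 3. With this narrower range, dim features read higher and bright features lower in the knockout. The median difference was 0.13 in the dimmest of 10 level classes (deciles) and -0.21 in the brightest, and after cyclic loess normalization it was 0.02 and -0.07.

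None of the 58 receptor genes passed the adjusted threshold in limma (0.05, Benjamini-Hochberg over 23521 features). The smallest adjusted p was 0.291, and 3 features in all passed, or 0.0128% of those tested. At an unadjusted p under 0.05 there were 9 members higher and 2 lower in the knockout. That is 15.5% and 3.45% of the members, beside 7.04% and 7.25% of all tested features. Groups without any overlap occurred in 1 member that was higher, Glra4, and 1 that was lower, Glrb. Over all features such groups made up 3.30% in the higher and 2.65% in the lower direction.

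Most members were dim, and their small differences pointed mainly upward. Of the 58 genes, 43 were higher and 15 lower in the knockout, with a median difference of 0.13 compared with 0.01 over all tested features. When each member was set beside the median of its own level decile, 31 of 58 lay above it. After cyclic loess the count was 30 higher and 28 lower, and the median was 0.02 compared with -0.03 over all features. At an unadjusted p under 0.05 there were then 6 members higher and 4 lower, beside 4.42% and 5.73% of all features. Groups without overlap were then Gabrr3, Glra1, Glra4 and Chrng higher and Glrb lower, beside 1.98% and 2.90% of all features. With the signal range of each array as a covariate the members' median was -0.03, with 25 higher and 33 lower.

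**Figure D1:**
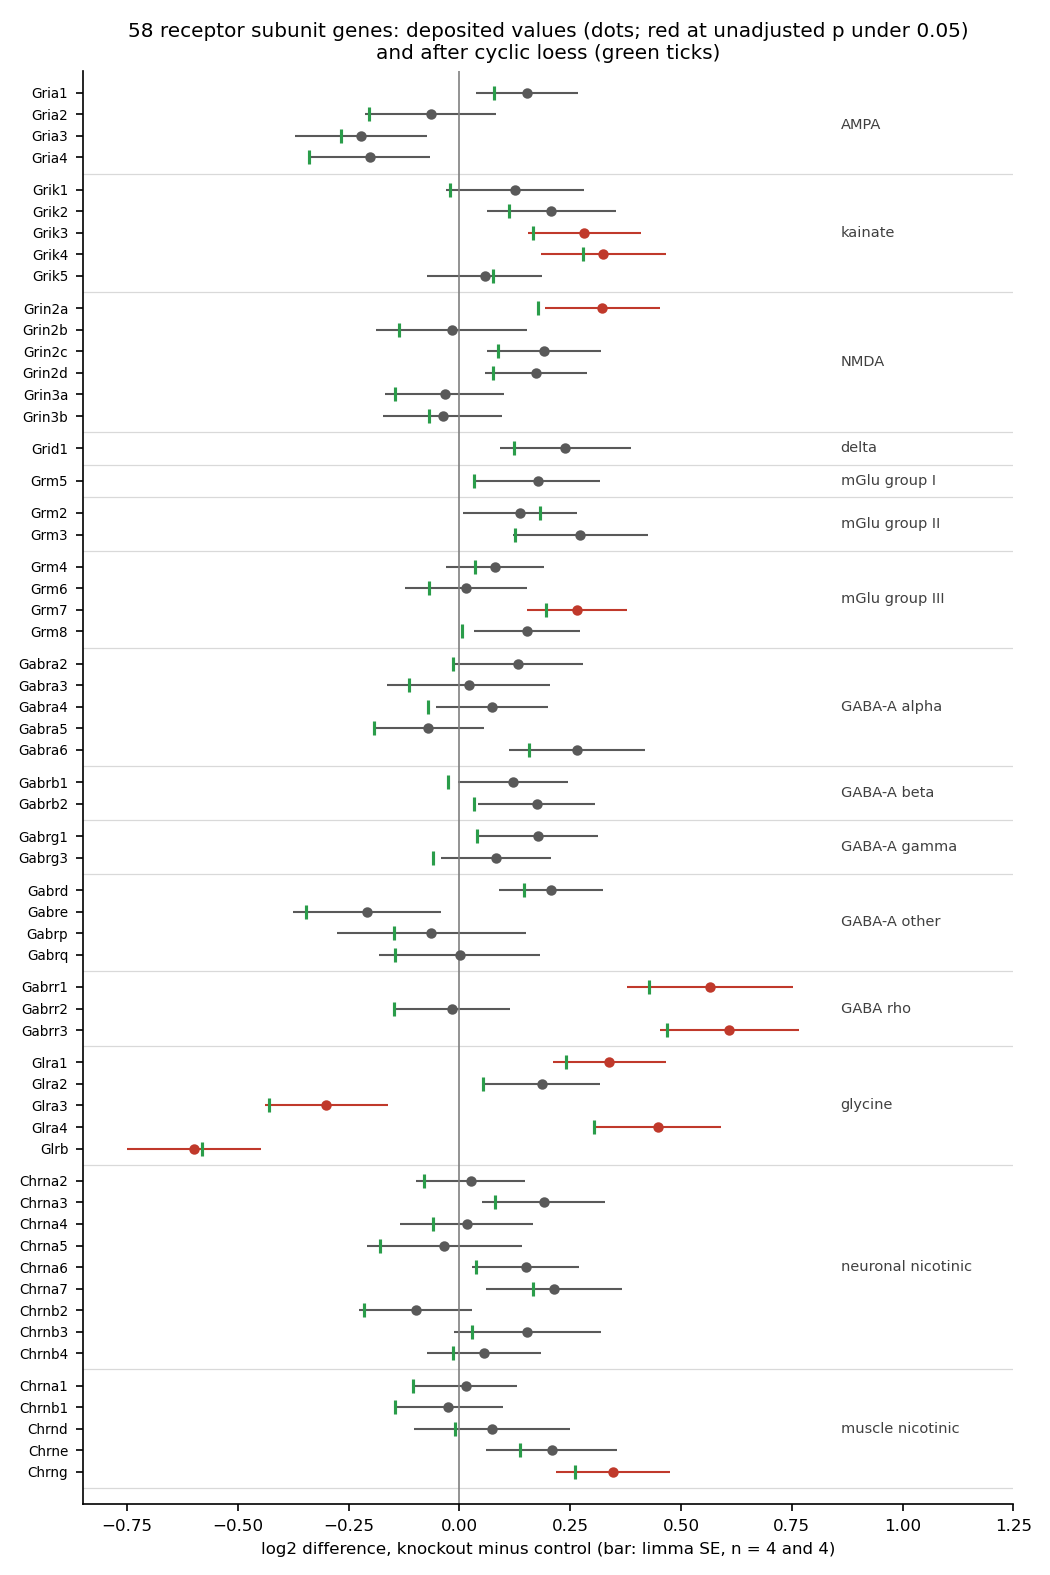
Log2 difference, knockout minus control, of each of the 58 genes by receptor family, with the limma SE as a bar (4 animals per group) and the value after cyclic loess as a green tick. Red marks the 11 members at an unadjusted p under 0.05; the rho and glycine families hold the widest differences, from -0.60 in Glrb to 0.61 in Gabrr3.

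Olfactory receptor genes, which are no markers of the cochlea, gave a reference for the brightness of features with little transcript. Over 1108 such features the 95th percentile of the mean level was 5.48, and the median difference was 0.19. The features of 8 members were brighter than that percentile: Grm2, Grik5, Glrb, Grin3b, Gria3, Grm4, Grik4 and Chrna7. The other 50 members lay at or below it, with a median difference of 0.14, while that of the 8 brighter members was 0.07. This reference is no detection limit. Probes differ in affinity, so the signals of different features are given here as brightness on the array and not as relative transcript levels of the genes.

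**Figure D2:**
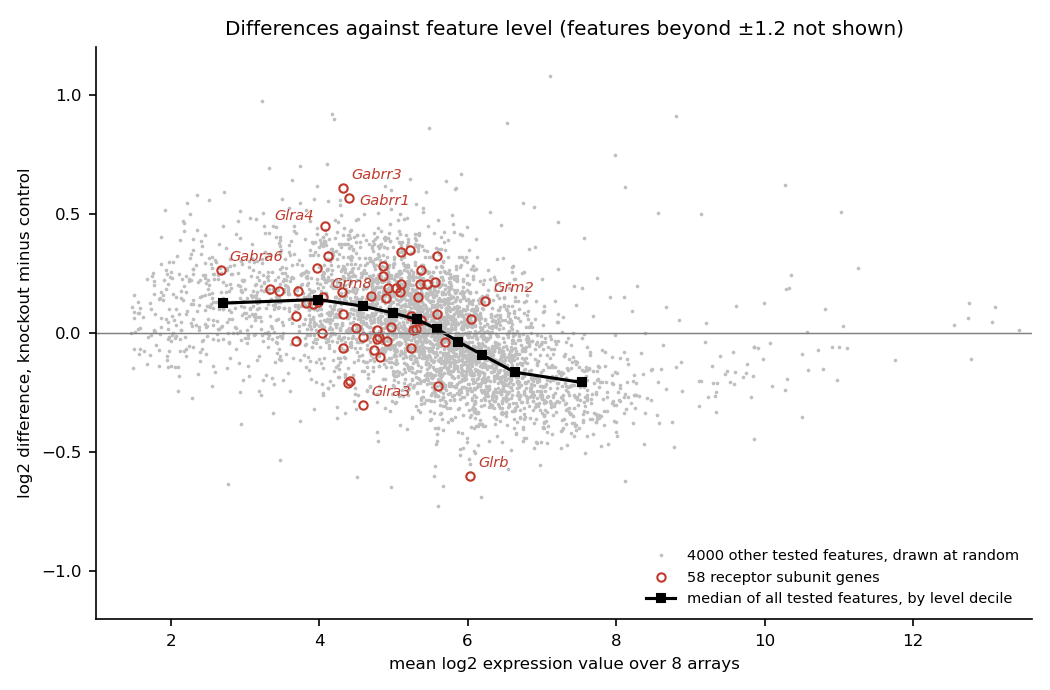
Log2 difference against the mean log2 level over 8 arrays for the 58 receptor genes (red circles) and a random draw of other features (grey), with the median of all tested features in each level decile (black squares). The medians run from 0.13 in the dimmest to -0.21 in the brightest decile; most members lie around the left part of that line, and Glrb lies well under it.

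The glycine receptor genes held the lowest difference of all members, in Glrb. At an unadjusted p under 0.05, 2 of the 5 were higher and 2 lower, and none passed the adjusted threshold. Over all tested features 7.04% were higher and 7.25% lower at that p. Glrb encodes the beta subunit, which binds the scaffold gephyrin and anchors the receptor at synapses. It read 6.08, 5.56, 5.40 and 5.87 in knockout animals 1 to 4 and 6.20, 6.56, 6.17 and 6.38 in control animals 1 to 4. The groups did not overlap: every knockout animal was lower than every control, and knockout 1 came closest to the controls. The difference was -0.60 (SE 0.15, 95% interval -0.92 to -0.27), 1.51-fold lower, with a limma adjusted p of 0.291. It was -0.58 after cyclic loess and -0.51 with the signal range covariate. Of the 11 members at an unadjusted p under 0.05, Glrb and Grik4 had a mean level above the olfactory reference.

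Glra4, an alpha subunit that forms the glycine binding site, read 4.21, 4.38, 4.32 and 4.29 in the knockout and 3.85, 3.90, 4.15 and 3.50 in the control animals. The knockout values were close together and all above the controls, whose highest value came from replicate 3. The difference was 0.45 (SE 0.14, limma adjusted p = 0.301), and it was 0.30 after cyclic loess. It was 0.17 with the signal range covariate.

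Glra1, the alpha subunit of the adult spinal and brainstem receptor, read 5.22, 5.04, 5.36 and 5.45 in the knockout and 4.99, 4.86, 5.10 and 4.76 in the control animals. Knockout 2 lay below control 3, so the groups overlapped. The difference was 0.34 (SE 0.13, limma adjusted p = 0.305).

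Glra3, an alpha subunit of inhibitory synapses in spinal cord and retina, read 4.73, 4.26, 4.37 and 4.40 in the knockout and 4.61, 4.58, 4.99 and 4.79 in the control animals. Knockout 1 lay among the controls and the other knockout values below them. The difference was -0.30 (SE 0.14, limma adjusted p = 0.349), and -0.43 after cyclic loess. The remaining alpha subunit, Glra2, common in the immature nervous system, differed by 0.19 (adjusted p = 0.502) at the dim level of 3.34.

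Of the 5 glycine receptor genes, 3 were higher and 2 lower, before and after cyclic loess, with a median of 0.19 as deposited. A list of spiral ganglion neuron markers had a lower mean in the knockout, as did the skeletal muscle, hair cell, Schwann cell and cochlear tissue lists. The level of the neuron list, the mean over 15 genes, was 5.72 to 6.02 in the knockout and 6.04 to 6.40 in the control animals. Of its 15 genes, 8 (53.3%) were lower at an unadjusted p under 0.05, beside 7.25% of all tested features. Snap25, the presynaptic fusion protein in that list, fell by 1.09 (SE 0.15, limma adjusted p = 0.0389). The neurofilament genes Nefl and Nefm in it were at -0.91 and -0.73 and did not pass. The part of spiral ganglion neurons in the Glrb value was not tested. In RNA from a whole organ, fewer cells of a type and less RNA per cell cannot be told apart. Gphn, the gephyrin gene, differed by -0.12 (adjusted p = 0.679).

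The GABA rho genes held the highest differences among the members, in Gabrr3 and Gabrr1. These subunits form chloride channels of slow kinetics, known mainly from the retina. Gabrr3 read 4.93, 4.31, 4.52 and 4.76 in the knockout and 3.89, 3.88, 4.33 and 3.97 in the control animals. Knockout 2 lay just below control 3, so the groups overlapped, and the other knockout values were above all controls. The difference was 0.61 (SE 0.16, 95% interval 0.27 to 0.94), 1.53-fold higher, with a limma adjusted p of 0.291. It was 0.47 after cyclic loess and 0.30 with the signal range covariate.

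Gabrr1 read 4.79, 4.38, 4.78 and 4.76 in the knockout and 3.93, 3.67, 4.67 and 4.17 in the control animals. Control 3 lay within the knockout values, and knockout 2 stood below the other knockouts. The difference was 0.57 (SE 0.19, limma adjusted p = 0.301). With an array left out it ran from 0.42 without control replicate 2 to 0.75 without control replicate 3 (limma adjusted p = 0.0710). It was 0.43 after cyclic loess, 0.37 with the skeletal muscle level as a covariate and 0.12 with the signal range covariate.

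Gabrr2, which lies next to Gabrr1 in the genome, differed by -0.02 (SE 0.13, 95% interval -0.30 to 0.27), with overlapping groups. All 3 rho features lay at dim mean levels of 4.32 to 4.59, under the olfactory reference.

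The classical GABA-A subunits differed less. The alpha subunits carry part of the GABA and benzodiazepine sites, the beta subunits the rest of the GABA site, and the gamma subunits link the receptor to synapses. Of the 13 alpha, beta, gamma, delta, epsilon, pi and theta genes, 10 were higher as deposited and 4 after cyclic loess, and 0 had an unadjusted p under 0.05 as deposited. Gabra6, known as the alpha subunit of cerebellar granule cells, read 2.88, 2.65, 3.04 and 2.68 in the knockout and 2.41, 2.87, 2.30 and 2.61 in the control animals. The groups overlapped, and the difference was 0.27 (SE 0.15, 95% interval -0.06 to 0.60, limma adjusted p = 0.425). The mean signal of its feature, 2.68, lay at percentile 4.92 of all tested features and was the dimmest among the members' features.

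The list of cerebellar and brainstem genes, tissue that could adhere to the dissected organ, gave similar levels in both groups. Its mean over 8 genes was 5.18 to 5.38 in the knockout and 5.20 to 5.42 in the control animals, and 0 of the 8 reached an unadjusted p of 0.05.

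Among the other alpha genes, Gabra2 differed by 0.13, Gabra3 by 0.02, Gabra4 by 0.07 and Gabra5 by -0.07. The beta and gamma genes were at 0.12 (Gabrb1), 0.17 (Gabrb2), 0.18 (Gabrg1) and 0.08 (Gabrg3). Gabrd, whose delta subunit replaces gamma in receptors outside synapses, differed by 0.21 (adjusted p = 0.419), and Gabre, the epsilon gene, by -0.21 (adjusted p = 0.546). Gabrp had the widest spread within groups of all members, at a pooled SD of 0.40, and its difference of -0.06 had an interval of -0.52 to 0.40.

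The AMPA genes had a median of -0.13, or -0.24 after cyclic loess, and none of the 4 had an unadjusted p under 0.05 as deposited. Gria2, Gria3 and Gria4 encode subunits of the afferent synapse under inner hair cells. Gria3, whose feature had the brightest mean signal of the 4, 5.59, read 5.65, 5.68, 5.39 and 5.21 in the knockout and 5.54, 5.88, 5.45 and 5.97 in the control animals. The groups overlapped widely, and the difference was -0.22 (SE 0.15, 95% interval -0.54 to 0.10, limma adjusted p = 0.477). It was -0.27 after cyclic loess and -0.31 to -0.13 with an array left out. With the signal range covariate, which itself differed between the groups, it was 0.17, so its sign depended on that covariate. Gria4 differed by -0.20, and by -0.34 after cyclic loess, at an unadjusted p under 0.05. Gria2, which sets calcium permeability and neighbours Glrb in the genome, differed by -0.06, and Gria1 by 0.15.

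All 5 kainate genes were higher as deposited, with a median of 0.21, while Grik1 was at -0.02 after cyclic loess and Grik4 and Grik5 were at -0.0020 and -0.21 with the signal range covariate. Kainate receptors modulate transmitter release and carry slow excitatory currents. Grik4, a subunit that binds its ligand with high affinity but needs a partner to form a channel, read 5.68, 5.41, 5.89 and 5.98 in the knockout and 5.48, 5.22, 5.63 and 5.34 in the control animals. Only knockout 2 reached down among the controls. The difference was 0.32 (SE 0.14, limma adjusted p = 0.332), and 0.28 after cyclic loess.

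Grik3 read 5.06, 4.88, 4.94 and 5.09 in the knockout and 4.76, 4.48, 4.97 and 4.64 in the control animals. Control 3 lay among the knockout values. The difference was 0.28 (SE 0.13, limma adjusted p = 0.342), and 0.17 after cyclic loess. Grik2 was at 0.21, Grik1 at 0.13 and Grik5 at 0.06.

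The NMDA genes split evenly, 3 higher and 3 lower, before and after cyclic loess, with a median of 0.08 as deposited. Grin2a, whose subunit replaces Grin2b during maturation of many synapses, read 4.23, 4.29, 4.23 and 4.35 in the knockout and 3.95, 3.89, 4.24 and 3.72 in the control animals. The knockout values were close together, and control 3 was the only control among them. The difference was 0.32 (SE 0.13, limma adjusted p = 0.312). With an array left out it ran from 0.25 without control replicate 4 to 0.42 without control replicate 3. It was 0.18 after cyclic loess.

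Grin2b differed by -0.02, Grin2c by 0.19 and Grin2d by 0.17, and the second features of these 3 genes were at 0.01, 0.25 and 0.21. The glycine-binding subunit genes Grin3a and Grin3b were at -0.03 and -0.04. Grid1, a delta receptor that links synapses through cerebellins, differed by 0.24 (adjusted p = 0.447).

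All 7 metabotropic glutamate receptor genes were higher as deposited, with a median of 0.15, while Grm6 was at -0.07 after cyclic loess and Grm2 and Grm3 were at -0.20 and -0.02 with the signal range covariate. The median after cyclic loess was 0.04. Grm7, a presynaptic autoreceptor of group III, read 5.60, 5.51, 5.35 and 5.55 in the knockout and 5.10, 5.27, 5.38 and 5.19 in the control animals. The overlap rested on knockout 3 and control 3. The difference was 0.27 (SE 0.11, limma adjusted p = 0.324), and 0.14 in the second, dimmer Grm7 feature (adjusted p = 0.580).

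Grm8, another presynaptic receptor of group III, lies on the same chromosome as the targeted microRNA cluster. It read 4.22, 4.15, 4.05 and 4.08 in the knockout and 4.10, 4.02, 3.99 and 3.78 in the control animals. The groups overlapped, with control 4 lowest. The difference was 0.15 (SE 0.12, 95% interval -0.10 to 0.41, limma adjusted p = 0.540), and 0.01 after cyclic loess.

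Grm2, a group II receptor whose feature had the brightest mean signal among the members, 6.23, differed by 0.14 (adjusted p = 0.612). Grm3, of the same group, was at 0.27 (adjusted p = 0.416). The excitatory group I receptor Grm5 was at 0.18. Grm4 was at 0.08 and had the narrowest spread within groups of all members, at an SD of 0.11. Grm6, the receptor of retinal ON bipolar cells, was at 0.01 in its brighter and 0.14 in its dimmer feature.

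**Figure D3:**
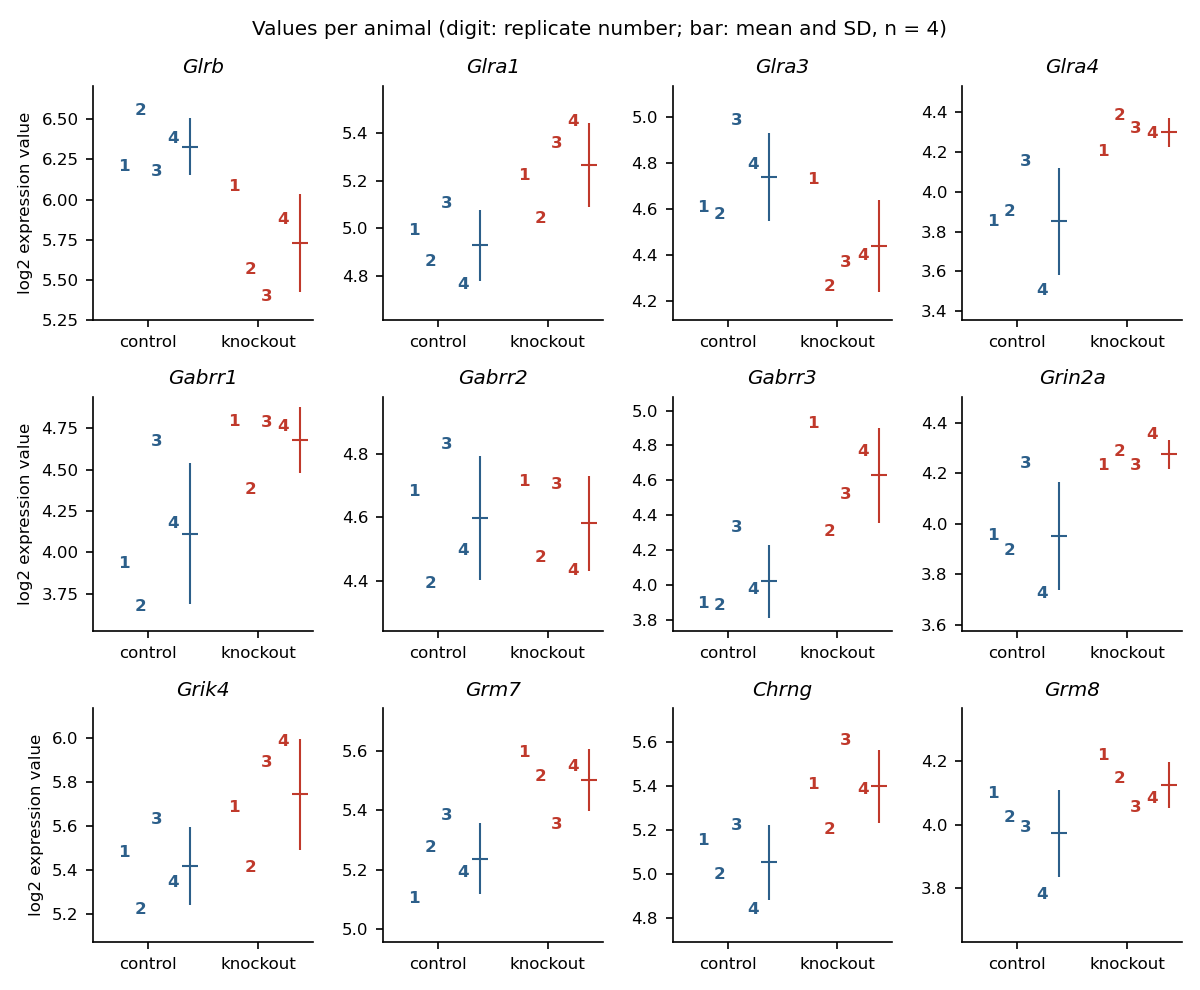
Log2 expression value of 12 receptor genes in each animal, with the replicate number as the symbol and the mean and SD (n = 4) as a bar beside each group. Glrb and Glra4 are the genes without overlap; in Gabrr1, Grin2a and Grm7 control animal 3 lies at 4.67, 4.24 and 5.38, among or next to the knockout animals.

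The neuronal nicotinic genes had a median of 0.05, with 7 of 9 higher as deposited, 4 of 9 after cyclic loess, and 0 at an unadjusted p under 0.05. Chrna7, whose subunit forms calcium-permeable channels alone, read 5.87, 5.17, 5.86 and 5.78 in the knockout and 5.60, 5.46, 5.31 and 5.45 in the control animals. Knockout 2 was the lowest of all 8 animals and the other knockouts were the highest. The difference was 0.21 (SE 0.15, limma adjusted p = 0.508). With an array left out it ran from 0.15 without knockout replicate 1 to 0.38 without knockout replicate 2 (limma adjusted p = 0.147). Chrna3 and Chrnb4, the ganglionic pair, were at 0.19 and 0.05, and Chrna4 and Chrnb2, the common brain pair, at 0.02 and -0.10. Chrna2, Chrna5, Chrna6 and Chrnb3 were at 0.03, -0.03, 0.15 and 0.15.

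The muscle nicotinic genes had a median of 0.07, or -0.01 after cyclic loess. Chrng, the gamma subunit of the immature endplate that epsilon (Chrne) replaces after birth, read 5.40, 5.20, 5.60 and 5.38 in the knockout and 5.15, 4.996, 5.22 and 4.84 in the control animals. Only knockout 2 and control 3 crossed, at 5.20 and 5.22. The difference was 0.35 (SE 0.13, limma adjusted p = 0.305), 0.26 after cyclic loess and 0.09 with the signal range covariate. Chrne was at 0.21, Chrnd, which neighbours Chrng, at 0.07, Chrna1 at 0.01 and Chrnb1 at -0.03.

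Skeletal muscle RNA differed between the animals and is given beside these subunits. The mean over 15 muscle genes was 5.59 to 6.71 in the knockout and 6.49 to 8.33 in the control animals. Of the 15 genes, 14 were lower, 6 at an unadjusted p under 0.05 and 0 that passed. Over all tested features 7.25% were lower at that p. Myh4 and Mylpf, a myosin heavy chain and a regulatory light chain of fast fibres, were at -1.67 and -1.30. Over the 8 animals, the correlation of each of the 5 muscle subunits with this level ran from a Pearson r of -0.480 (Chrng) to 0.490 (Chrnb1). The two-sided exact permutation p-values were 0.203 to 0.869, and 0.557 to 0.869 after Benjamini-Hochberg adjustment over the 5. Spearman's rho ran from -0.452 to 0.310 (permutation p 0.267 to 0.582, adjusted p 0.582 in each). Without control 2 and knockout 1, the animals farthest from the median muscle level, r ran from -0.188 to 0.183. With 4 animals in each genotype, r within a genotype was not computed. Chrng stayed higher in the knockout in the fit with the muscle level as a covariate. Neither that fit nor the correlations give the part of muscle RNA in the Chrng value, because muscle level and genotype went together.

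**Figure D4:**
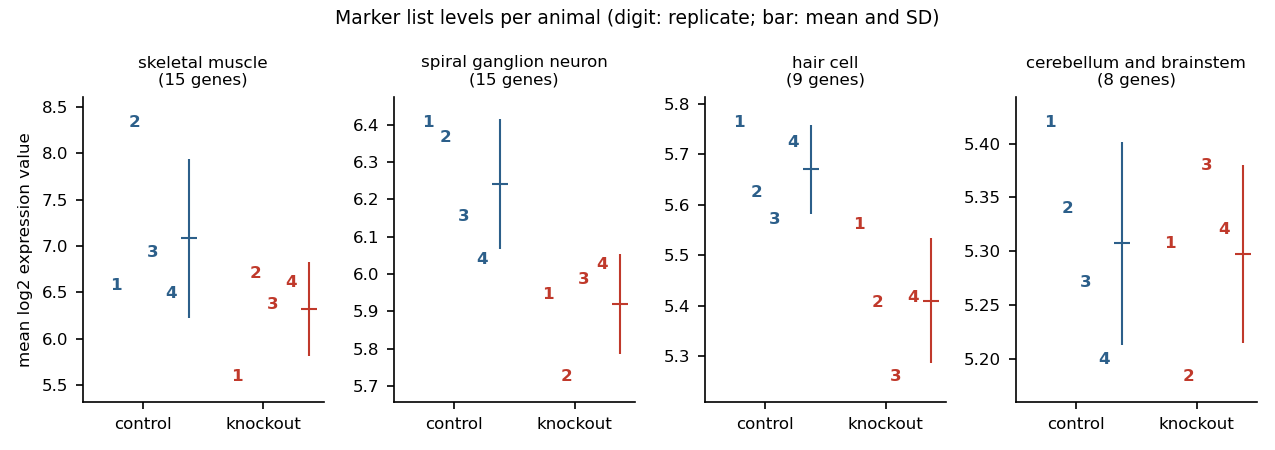
Mean log2 value of 4 marker gene lists in each animal, with the replicate number as the symbol and the mean and SD (n = 4) as a bar. Spiral ganglion neuron and hair cell lists are lower in every knockout than in every control animal. In both lists the groups nearly meet, at 6.02 and 6.04 in the neuron list and 5.56 and 5.57 in the hair cell list. The median difference of the 9 hair cell genes is -0.04, with Calb2 at -1.60. Muscle varies from 5.59 to 8.33, and the cerebellum and brainstem list overlaps.

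Genes that supply or remove the transmitters were compared next. Of 21 genes measured for synthesis, vesicle loading, uptake and breakdown, 2 were higher and 2 lower at an unadjusted p under 0.05. That is 9.52% in each direction, beside 7.04% and 7.25% of all tested features. The median was 0.05 and none passed. Slc1a1, a neuronal glutamate transporter, was at 0.44 (adjusted p = 0.301), and Slc1a3, the glial glutamate transporter of the cochlea, at -0.29 (adjusted p = 0.305). Bche, a cholinesterase, was at 0.40 and Glul, glutamine synthetase, at -0.21. Slc17a8, the vesicular transporter that loads glutamate in inner hair cells, differed by -0.05 (adjusted p = 0.907).

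The proteins that escort or anchor receptors differed little. Of 33 auxiliary and scaffold genes, with a median of 0.04, 1 was lower at an unadjusted p under 0.05. It was Cacng7, a regulatory protein of AMPA receptors, at -0.48 (SE 0.15, adjusted p = 0.301). The share of the list lower at that level was 3.03%, beside 7.25% of all tested features. Of 10 genes of nicotinic receptor assembly and the endplate, 0 reached that level, including Rapsn, the clustering protein rapsyn, at 0.12. The 9 related receptors outside the chosen families gave 0 as well: the efferent subunits Chrna9 and Chrna10 of hair cells were at 0.03 and 0.02, and Gabbr1 and Gabbr2, the metabotropic GABA receptor, at -0.22 and -0.02.

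Other cell types of the cochlea are given for the same animals. The hair cell list had a mean of 5.26 to 5.56 in the knockout and 5.57 to 5.76 in the control animals. In it Calb2, calretinin, fell by 1.60 (limma adjusted p = 0.000752), while the median of the 9 genes was -0.04. The 5 Schwann cell genes measured were all lower, with a median of -0.25 and 0 that passed, and the 10 genes of cochlear supporting tissue had a median of -0.21. After cyclic loess the medians were -0.14 and -0.20. At an unadjusted p under 0.05, 1 of the 5 (20%) and 4 of the 10 (40%) were lower, beside 7.25% of all tested features. Of all 23521 tested features, 11200 were lower at any p. Whether these differences bear on any receptor value was not tested.

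Many of the 58 genes lie in clusters. There were 14 pairs with at most 1 coding gene between them, made of 24 genes, and 11 of the pairs were directly adjacent. The 2 differences had the same sign in 10 pairs and opposite signs in 4. With 43 of the 58 genes higher, many pairs share a sign wherever they lie, and some genes stood in 2 pairs. Whether neighbours share a sign more often than other pairs was not tested. Adjacent genes could still differ by much: -0.06 in Gria2 and -0.60 in Glrb, -0.02 in Gabrr2 and 0.57 in Gabrr1, and 0.07 in Chrnd and 0.35 in Chrng.

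The spread between animals sets what could be seen. The members' SD within groups had a median of 0.19, beside 0.19 over all features, and the SE of a difference had a median of 0.14. Control replicate 3 was the highest control in 31 of the 58 members and control replicate 4 the lowest in 24, while knockout replicate 2 was the lowest knockout in 26 and knockout replicate 4 the highest in 24. Without control replicate 3, 11 members were higher and 1 lower without overlap, 20.7% of the members in all, beside 9.17% of all features higher and 9.62% lower, 18.8% in all. None of the members passed the adjusted threshold there.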

How the data were processed

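The deposited log2 expression values are gene-level RMA values from Affymetrix Expression Console, per the submitters' processing notes and labels. Software versions and the annotation release were not given in the sources used here. Features linked to exactly 1 symbol by the platform annotation (23521 of 41345) were tested, and symbols were matched to RefSeq tables of assembly GRCm38.p6.

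The 4 knockout and 4 control arrays were compared in limma 3.58.1 under R 4.3.3 with lmFit and eBayes, an intensity trend and no covariate, on log2 values as deposited. Benjamini-Hochberg adjustment ran over the 23521 features, with a threshold of 0.05. The steps were tested on simulated data. Correlations used exact permutation tests over all pairings, computed with numpy 2.4.6 under Python 3.11.15, with ranks from scipy 1.17.1. Those with an array left out were computed in R. No detection call, background level or batch was used. Precision is limited by the number of arrays.

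The receptor genes and the other gene lists were chosen with earlier results of these data known. Named genes were up to 8 in each direction with the smallest unadjusted p under 0.05, those without overlap, the member with the smallest p and the brightest member of each family, Grm8, Gabra6, Mir96 and up to 3 genes of each list. Other members and list genes are given within the account of their family or list, and such choices followed their values. Tried as alternatives were a replicate block, eBayes with robust variance or with no trend, all features, features with a mean of at least 5, cyclic loess, repeated quantile normalization, signal range and muscle covariates, array weights, the mean over a gene's features, and each array left out.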

Additional observations from a re-analysis of the deposited data

Results flagged for a closer look

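In 116 groups of 4 values (58 genes in each genotype), 7 held 1 animal whose gap to the nearest other exceeded Dixon's 95% critical value, a rate that chance gives in about 1 of 20 groups. Control replicate 3 was the highest control in Gabra2, at 4.27 with the others at 3.76 to 3.84, and in Gabrq, at 4.62 with the others at 3.79 to 3.90. Control replicate 2 was the highest control in Gabra5, at 4.86 with the others at 4.73 to 4.75, and the lowest in Chrna2, at 4.66 with the others at 5.02 to 5.09. Knockout replicate 3 was the highest knockout in Gabra5, at 5.003 with the others at 4.58 to 4.61. Knockout replicate 2 was the lowest knockout in Gabrr1, at 4.38 with the others at 4.76 to 4.79, and in Chrna7, at 5.17 with the others at 5.78 to 5.87. The same animal had the lowest list mean for ligand supply and uptake, at 5.38 with the others at 5.47 to 5.48, and for Schwann cells, at 6.25 with the others at 6.59 to 6.64.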

How the results depend on the processing

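None of the 58 members passed the adjusted threshold under any of the 11 other settings or with any of the 8 arrays left out; the lowest adjusted p-values with an array left out were 0.0710 (Gabrr1), 0.0735 (Gabrr3) and 0.0856 (Glrb and Glra4), all without control replicate 3. The count of members at an unadjusted p under 0.05 was 5 of 22 tested among features with a mean of at least 5 (22.7%, beside 15.3% of all features in that setting), 6 with the signal range covariate (1 higher, 5 lower; 10.3% beside 5.95%), 5 with the muscle covariate (8.62% beside 7.60%), and 4 to 11 with an array left out, from 6.90% beside 8.09% without control replicate 4 to 19.0% beside 23.4% without control replicate 3. Members without overlap numbered 1 at a mean of at least 5 (4.55% beside 5.85%), 5 after cyclic loess (8.62% beside 4.88%), 5 after repeated quantile normalization (8.62% beside 4.81%), and 2 to 12 with an array left out, from 3.45% beside 8.29% without knockout replicate 4 and 7.46% without control replicate 4 to 20.7% beside 18.8% without control replicate 3. The median difference was 0.017 after cyclic loess, 0.029 after repeated quantile normalization, -0.034 with the signal range covariate, and 0.07 to 0.15 with an array left out. The cause was not tested, apart from the smaller number of features above a mean of 5. Same-numbered arrays did not deviate together (correlations of 0.06, 0.21, 0.21 and -0.29), so the numbers were not taken to pair animals; with the replicate number as a block, 9 members were at an unadjusted p under 0.05 (8 higher, 1 lower; 15.5%, beside 15.5% of all features), 0 passed and the calls did not change.

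For the 28 named members, 501 of 517 values kept their direction and 16 changed sign. None of these members passed the threshold in any setting, so the count speaks of direction only. A smaller difference of the same sign counts as kept. Gabrg3 was at -0.059 after cyclic loess, -0.048 after repeated quantile normalization and -0.13 with the signal range covariate. That covariate also gave Gria3 0.17, Grik4 -0.0020, Grik5 -0.21, Grm2 -0.20 and Grm3 -0.024, and array weights gave Grin3b 0.012 and Gabrr2 0.0215. With an array left out, Gabrr2 ran from -0.087 to 0.059, Grin3b from -0.096 to 0.084 and Grik5 from -0.058 to 0.13, and the muscle correlation of Chrna1 from -0.393 to 0.646 and of Chrnd from -0.171 to 0.451. In the 50 members at or below the olfactory reference level, a small difference cannot be told apart from the difference in signal range between the groups. Above that level, Gria3, Grik4, Grik5 and Grm2 changed sign with the covariate. After cyclic loess they kept their sign, at -0.27, 0.28, 0.08 and 0.18. The signal range was 1.37 to 1.44 in knockout and 1.41 to 1.56 in control arrays. A fit with this covariate therefore cannot fully separate signal range from genotype.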
